A study of Mus musculus with 4 samples.

Results

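The 40 genes described here encode proteins of mitosis, from the cyclins and kinases that bring a cell into division to the proteins that part its chromosomes and its cytoplasm. They were taken as a list of named genes whose rule used no measured value, although the list was drawn up with earlier results of these data known, and all 40 were found among the 28692 genes listed in the files. By role, 8 were the cyclin-dependent kinase CDK1 or its regulators, 5 belonged to the anaphase-promoting complex (APC/C) or the spindle checkpoint, 5 were mitotic kinases or subunits of the chromosomal passenger complex, 6 acted at the centromere and kinetochore, 9 at the spindle and 4 in cytokinesis, and 3 were grouped for chromosome structure and *Mki67*. Their levels and the share of cells that held their transcripts were compared between libraries, between gut regions and between groups of cells in the stroma of the embryonic mouse intestine.

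The study profiled untreated mouse embryos at E12.5 by droplet single-cell RNA sequencing, as part of work on the embryonic origin of adult intestinal fibroblasts. All embryos carried yellow fluorescent protein (strain label EYFP (C57BL/6)), from mice bred by crossing a Cre-dependent EYFP reporter with a Cre line that is not named for these samples. Small intestine (SI, 2 libraries) and large intestine including the cecum (LI, 2 libraries) came from 2 experiments, each with several embryos. The sort had taken live cells that were CD45-, Ter119-, CD31-, EpCAM-, Itgb1+ and YFP+, which removes leukocytes, erythroid cells, endothelium and epithelium. Nothing ties a library to a single embryo, so the spread between the 2 libraries of a region may be partly technical, and the labels do not say which library was made with the 3′ and which with the 5′ kit. Some labels of the same samples name adult or colonic tissue, and the stage and region used here follow the titles and the protocol.

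A dividing cell builds up most of these transcripts late in the cycle. Cyclin B and CDK1 drive entry into mitosis, the checkpoint proteins hold the cell until every chromosome is attached to the spindle, and the APC/C with its activator CDC20 then has cyclin B and securin destroyed so that the chromatids separate. Many of these genes share promoter elements, the cell cycle genes homology region (CHR, written TTTGAA or TTCGAA) and CCAAT boxes bound by the factor NF-Y, through which the DREAM complex keeps them silent in resting cells and MYB-MuvB complexes and FOXM1 raise them before division. In the E12.5 gut the mesenchyme, the muscle layer, the covering mesothelium and the neural crest cells that colonise the wall all grow, whereas enteric neurons leave the cell cycle.

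The promoters of 6 members are shown because their transcripts carry the results below. *Cdk1* is the kinase of mitotic entry, *Cdc20* the activator of the APC/C at anaphase, and *Ccnb1* and *Ccnb2* are the cyclins B. *Top2a* and *Ube2c* lie far apart in the order against DNA replication given at the end. Each run is the 250 bases before the RefSeq start of the gene in build GRCm38.p6, written 5′ to 3′ on the strand of the gene, with CHR words and CCAAT boxes on either strand in capitals (TTCAAA and ATTGG are the same words read on the other strand).
Cdk1, chr10:69352913-69353162 (- strand): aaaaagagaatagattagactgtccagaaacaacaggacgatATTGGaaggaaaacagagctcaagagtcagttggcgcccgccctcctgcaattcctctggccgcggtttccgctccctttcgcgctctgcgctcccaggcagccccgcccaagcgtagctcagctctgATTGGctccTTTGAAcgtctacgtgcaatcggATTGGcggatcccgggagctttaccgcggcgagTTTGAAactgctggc
Cdc20, chr4:118437344-118437593 (- strand): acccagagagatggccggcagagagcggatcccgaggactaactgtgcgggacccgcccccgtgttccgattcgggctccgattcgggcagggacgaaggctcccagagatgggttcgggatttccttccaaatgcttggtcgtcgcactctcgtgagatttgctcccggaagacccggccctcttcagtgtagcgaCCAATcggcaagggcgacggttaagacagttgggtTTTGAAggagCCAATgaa
Ccnb1, chr13:100786487-100786736 (- strand): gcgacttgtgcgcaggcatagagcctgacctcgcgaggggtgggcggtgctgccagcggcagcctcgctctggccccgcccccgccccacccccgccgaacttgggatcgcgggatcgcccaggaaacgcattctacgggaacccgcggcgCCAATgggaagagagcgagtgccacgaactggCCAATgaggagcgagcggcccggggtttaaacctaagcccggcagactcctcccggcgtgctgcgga
Ccnb2, chr9:70421555-70421804 (- strand): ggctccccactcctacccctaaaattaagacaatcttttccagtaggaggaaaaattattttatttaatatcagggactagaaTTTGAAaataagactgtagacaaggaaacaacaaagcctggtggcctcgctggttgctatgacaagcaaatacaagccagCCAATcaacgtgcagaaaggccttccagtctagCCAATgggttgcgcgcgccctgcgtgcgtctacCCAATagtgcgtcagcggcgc
Top2a, chr11:99024190-99024439 (- strand): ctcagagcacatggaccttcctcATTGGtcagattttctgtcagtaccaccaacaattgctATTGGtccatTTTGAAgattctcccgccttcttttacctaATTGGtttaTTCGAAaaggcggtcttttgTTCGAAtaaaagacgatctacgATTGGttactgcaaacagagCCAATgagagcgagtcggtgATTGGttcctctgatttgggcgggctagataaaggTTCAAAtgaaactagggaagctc
Ube2c, chr2:164769679-164769928 (+ strand): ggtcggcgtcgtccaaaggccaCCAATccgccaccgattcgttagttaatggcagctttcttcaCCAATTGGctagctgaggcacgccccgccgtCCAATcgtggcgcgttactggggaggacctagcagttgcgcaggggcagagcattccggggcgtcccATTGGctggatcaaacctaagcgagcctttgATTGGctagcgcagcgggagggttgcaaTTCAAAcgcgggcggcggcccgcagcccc
The run of *Cdk1* held 2 CHR words, which began 71 and 15 bases before the start, and 3 CCAAT boxes. *Cdc20* had its CHR word 18 bases before the start between CCAAT boxes at 53 and 8 bases. *Ccnb1* had 2 CCAAT boxes, at 99 and 67 bases, and no CHR word in this window. *Top2a* held 4 CHR words and 6 CCAAT boxes.

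RefSeq promoters, from 250 bases before to 50 after the start, were available for 35 of the 40 members and for 27025 genes in all. A CHR word on either strand was present in 27 of the 35 (77.1%) and in 21.7% of all promoters, and within 50 bases of the start in 23 members (65.7%) against 6.12% of all. CCAAT was present in 26 members (74.3%) against 41.1% of all promoters, and at 2 or more places in 57.1% against 13.3%. The TATA word TATAAA was found in 1 member (2.86%) and in 15.7% of all. A match of letters is a description of the sequence, and no binding was measured.

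The members lay on 16 chromosomes of the mm10 annotation, with *Top2a* at chr11:98992943-99024189, *Cdc20* at chr4:118432901-118437352 and *Nusap1* at chr2:119618298-119651244. No member shared exon sequence with another gene on its own strand. For 8 members an exon overlapped an antisense gene, among them *Ccna2* with *Exosc9* and *Cdc20* with *Elovl1*.

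The 4 libraries held 31630548 to 62886525 unique molecular identifiers (UMIs, single captured transcripts), and LI replicate 1 was the shallowest, its kept cells having a median depth of 4220.5 UMIs against 8382 to 8829 in the others. Of 22094 cells kept, 12739 were other mesenchyme (5 clusters), 6760 smooth muscle-like (SMC), 1330 mesothelial-like, 954 neural progenitor-like and 292 neuron-like, and a cluster of 19 cells led by *Pf4*, *Afp* and *Hbb-bt*, a haemoglobin gene, was left out. These groups are clusters named from marker genes, shortened below to SMC, mesothelial cells, neural progenitors and neurons, and the 40 members had been left out of the clustering genes. Their defining markers were present, with *Myh11* at 294 CPM in SMC (the UMIs of a gene scaled to the UMI total of the group), *Upk3b* at 697 in mesothelial cells, *Sox10* at 133 in neural progenitors and *Stmn2* at 2790 in neurons, and *Pdgfra* at 102 in SMC and 2.56 in mesothelial cells. Other mesenchyme was named from mesenchyme markers that SMC shared. Its clusters held 11 to 13 of them in at least 10% of cells, SMC 12 and mesothelial cells 11. *Ptprc*, which encodes CD45, had no UMI in any of the 5 groups. Library pairs shared 8 to 15 cell barcodes.

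Neural progenitors held the most mitosis transcripts and neurons the fewest. The 40 members together made up 6240 ± 809 CPM in neural progenitors (SD, n = 4 libraries), 4748 ± 783 in other mesenchyme, 4757 ± 585 in SMC, 2914 ± 450 in mesothelial cells and 1897 ± 440 in neurons. In neural progenitors the 2 LI libraries gave 5033 and 6534 CPM and the 2 SI libraries 6707 and 6687 CPM, listed by replicate number as are all values by library. In other mesenchyme the same libraries gave 4320, 4057, 5832 and 4786 CPM. Thus both SI libraries lay above both LI libraries in other mesenchyme, and LI replicate 1 lay apart below the others in neural progenitors. In SMC the sums were 5100, 4764, 5234 and 3932 CPM, so the regions overlapped and SI replicate 2 was lowest. Mesothelial cells gave 3409, 2563, 3180 and 2503 CPM, with both replicates 1 above both replicates 2. Neurons gave 2552, 1726, 1709 and 1603 CPM, with LI replicate 1 highest. Ordered by mean level over the libraries, other mesenchyme and SMC were neighbours that did not differ beyond their spread, whereas every library of the mesothelial cells lay below every library of those 2 groups. The place of SMC depended on how the cells were grouped: with clusters formed without regression of cell cycle scores the means were 5645 CPM in other mesenchyme and 516 CPM in SMC, and with groups set by marker UMIs 4984 and 3732 CPM. By single member, 36 of 40 had their highest mean in neural progenitors, 3 in SMC and 1 in other mesenchyme, and 39 had their lowest in neurons.

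**Figure D1:**
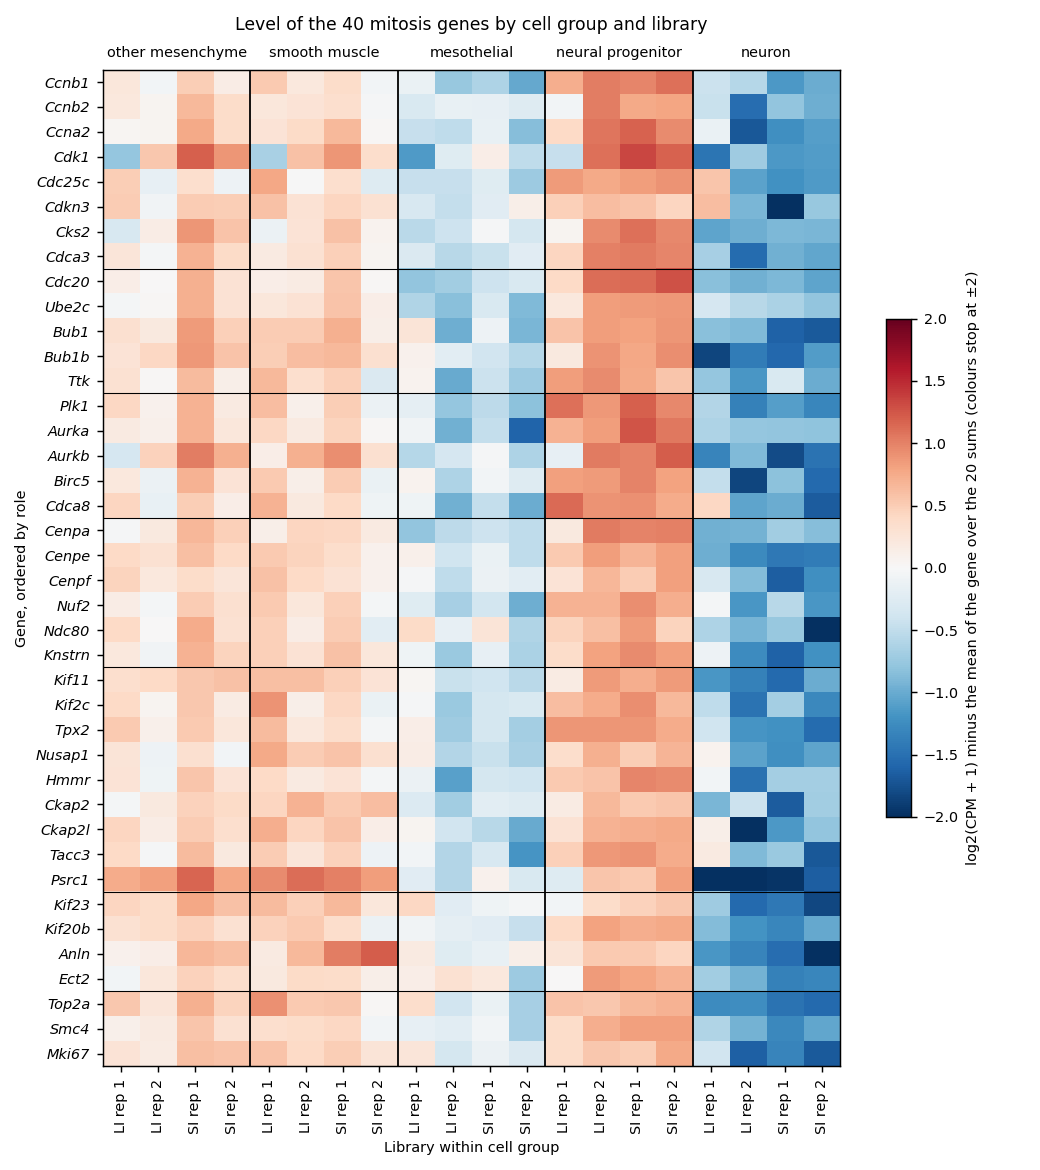
Levels of the 40 members (rows, ordered by role) in each of the 4 libraries within each group of cells (columns), coloured by log2(CPM + 1) minus the mean of that gene over all columns, red above and blue below that mean. The summed level in neural progenitors was 6240 ± 809 CPM and in neurons 1897 ± 440 CPM (SD, n = 4).

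A cell was counted when at least 5 of the 40 members had a UMI after each cell had been thinned to 3000 UMIs, which 20715 cells reached. By this measure 74.4% ± 4.65 of neural progenitors (SD, n = 4), 42.4% ± 9.89 of other mesenchyme cells, 42.8% ± 8.92 of SMC, 26.3% ± 7.43 of mesothelial cells and 15.5% ± 10.0 of neurons were counted. The neurons serve as the group that should largely lack these transcripts, and their median depth before thinning was 12213 UMIs against 7164 in other mesenchyme, 7753 in SMC, 6085 in mesothelial cells and 13615.5 in neural progenitors. Without thinning the shares were 93.3% in neural progenitors, 50.1% in other mesenchyme, 49.98% in SMC, 31.95% in mesothelial cells and 31.8% in neurons. The share of neurons was thus 31.8% over all UMIs of all cells and 15.5% after thinning, which also left out 5 neurons under 3000 UMIs. The share of SMC was 4.92% with clusters formed without regression and 32.2% with groups set by marker UMIs. The shares also depended on the limit of 5 members. By library, 24.4% to 33.1% of neural progenitors held 3 to 7 members, against 11.1% to 18.3% of other mesenchyme cells. At 15 members the shares were 30.2% ± 4.66 in neural progenitors, 20.4% ± 5.16 in other mesenchyme and 21.1% ± 3.76 in SMC, and the libraries of these groups overlapped.

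Among other mesenchyme cells the share was 41.1% of 3190 (95% Wilson interval 39.4 to 42.9) and 31.6% of 2865 (29.9 to 33.3) in the LI libraries. In the SI libraries it was 55.5% of 2508 (53.6 to 57.5) and 41.2% of 3174 (39.5 to 42.9). The intervals cover counting error only. The limit of 3000 UMIs left out 755 of 3945 other mesenchyme cells of LI replicate 1 but 156 of 3021, 35 of 2543 and 56 of 3230 in the other libraries, and the counted cells were the deeper ones, with a median of 9244.5 UMIs against 6791. Over all UMIs of all cells the shares were 38.9% and 41.1% in LI and 69.0% and 51.5% in SI, so that the order of the LI libraries turned. In thinned cells SI replicate 1 stood highest and LI replicate 2 lowest, and the intervals of the other two libraries overlapped. In neural progenitors the share was 75.7%, 69.3%, 80.2% and 72.6%, the LI libraries first. Mesothelial cells gave 36.2%, 25.3%, 25.5% and 18.1%, and SMC 49.6%, 39.1%, 50.5% and 31.8%. In neurons the share was 30.2% of 43 and 10.7% of 56 LI cells and 13.0% of 77 and 8.11% of 111 SI cells, so that a single library raised the mean. In every group and in both regions, the thinned share was higher in replicate 1 than in replicate 2. The reason was not tested.

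**Figure D2:**
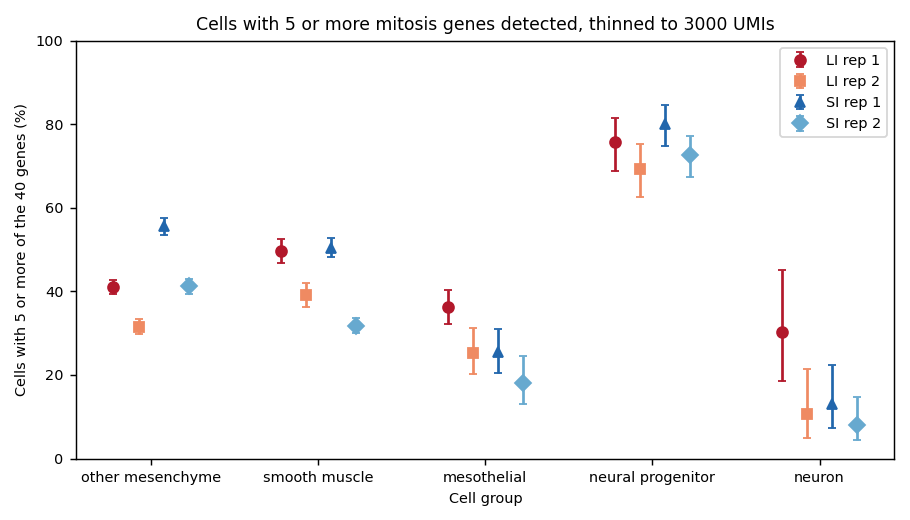
Share of cells (percent) with a UMI of at least 5 of the 40 members after thinning to 3000 UMIs, by group and library, with 95% Wilson intervals that cover counting error only. With this limit of 5 members neural progenitors lie between 69.3% and 80.2%, above all libraries of the other groups. At 15 members they overlap other mesenchyme and SMC.

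The transcripts were concentrated in a part of the cells. In other mesenchyme, cells with at least 5 members held 93.9% ± 1.03 (SD, n = 4) of all member UMIs and carried a mean of 26.35 ± 0.734 member UMIs each. In SMC the load of a counted cell was 26.4 ± 1.54 UMIs, in mesothelial cells 26.6 ± 4.17 and in neurons 26.2 ± 5.68. The mean load per counted cell thus differed little between these 4 groups beside its spread, and the groups differed in how many cells were counted. The neuron loads rest on 13, 6, 10 and 9 counted cells. Mesothelial loads were 22.8 and 24.3 in LI and 27.0 and 32.3 in SI. Neuron loads were 19.9 and 23.3 in LI and 28.9 and 32.7 in SI, so in both groups the SI libraries lay above the LI libraries. Neural progenitors had more cells counted, with 21.5 ± 2.53 UMIs in each. Their libraries gave 17.8, 23.0, 22.2 and 23.1 UMIs. These lay below all libraries of other mesenchyme and SMC but overlapped those of mesothelial cells and neurons. Cells without a single member UMI made up 2.71% ± 2.62 of neural progenitors, 21.5% ± 7.96 of other mesenchyme, 35.2% ± 5.78 of mesothelial cells and 38.4% ± 7.59 of neurons.

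*Ccnb1*, cyclin B1, was measured at 111, 90.5, 134 and 104 CPM in other mesenchyme (both LI libraries, then both SI libraries) and at 157, 194, 186 and 204 CPM in neural progenitors. It was lower in mesothelial cells, at 86.1, 55.4, 61.1 and 46.0 CPM, and in neurons, at 70.0, 63.4, 42.1 and 47.0 CPM. At 3000 UMIs it was detected in 31.4% ± 1.64 of neural progenitors and 7.20% ± 3.95 of neurons (SD, n = 4). Its levels in SMC, 137, 109.8, 122.5 and 90.8 CPM, overlapped those of other mesenchyme.

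*Cdk1*, the kinase that cyclin B activates, gave 59.0, 148, 233 and 188 CPM in other mesenchyme and 73.7, 218, 257 and 230 CPM in neural progenitors. LI replicate 1 was the lowest library in both and also in SMC (63.9 against 153, 187 and 129 CPM), mesothelial cells (45.5 against 85.5, 111 and 71.2) and neurons (36.3 against 61.4, 45.1 and 46.3). *Cks2*, a small subunit that binds the kinase, and *Cenpa* were likewise lowest in LI replicate 1 in all 5 groups. By contrast *Cdca8* and *Cenpf* were highest in LI replicate 1 in 4 of the 5 groups, so this library was not low for the members in general. Its depth was below that of the others and its kit is not stated, and the part of either in these levels was not tested.

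*Cdc20*, the activator of the APC/C at anaphase, was measured at 86.8, 79.7, 130 and 96.9 CPM in other mesenchyme, at 104.5, 173, 174 and 192 in neural progenitors and at 44.0, 40.3, 42.1 and 37.5 in neurons. Its SMC levels, 86.6, 88.5, 117 and 80.6 CPM, overlapped those of other mesenchyme. Its mesothelial levels, 45.2, 48.7, 59.3 and 63.6 CPM, lay below all 4 libraries of other mesenchyme. *Plk1*, the polo kinase of spindle assembly, gave 57.7, 45.6, 70.3 and 49.1 CPM in other mesenchyme, 93.4, 79.5, 100.4 and 85.2 in neural progenitors and 66.9, 46.4, 61.3 and 39.9 in SMC. It gave 37.9, 24.9, 29.7 and 23.9 CPM in mesothelial cells and 28.5, 16.3, 19.6 and 16.9 CPM in neurons. None of the mesothelial or neuronal libraries reached the lowest library of other mesenchyme. *Aurkb*, the kinase of the chromosomal passenger complex, gave 36.9, 64.7, 96.2 and 76.9 CPM in other mesenchyme and 41.4, 97.3, 93.7 and 109 in neural progenitors, low in LI replicate 1 in both. Its levels were 51.5, 76.8, 90.1 and 58.8 CPM in SMC, 31.0, 36.8, 45.9 and 30.2 in mesothelial cells and 18.1, 25.0, 12.7 and 16.2 in neurons, the lowest group in every library.

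*Top2a*, the topoisomerase that untangles replicated DNA, was measured at 479, 391, 540 and 449 CPM in other mesenchyme, 490, 480, 518 and 534 in neural progenitors and 137, 139, 119 and 112 in neurons. Its SMC levels were 626, 476, 482 and 336.5 CPM and its mesothelial levels 423, 253, 302 and 208 CPM, with LI replicate 1 highest in both. *Mki67*, whose protein Ki-67 coats mitotic chromosomes, gave 176, 163, 220 and 217 CPM in other mesenchyme, and both SI libraries lay above both LI libraries. Its levels were 216.5, 192, 204 and 174 CPM in SMC, 188, 212, 205 and 245 in neural progenitors, 172.5, 113, 133.5 and 119 in mesothelial cells and 111, 46.1, 57.8 and 44.8 in neurons. It was detected in 40.5% ± 2.47 of neural progenitors, 26.9% ± 5.61 of other mesenchyme cells, 27.6% ± 3.96 of SMC, 18.8% ± 4.91 of mesothelial cells and 8.47% ± 6.29 of neurons at 3000 UMIs. *Cenpf*, a late kinetochore protein, gave 340, 288, 320 and 294 CPM in other mesenchyme, where the regions overlapped, and 299, 393, 354 and 441 CPM in neural progenitors. In SMC it gave 374, 328, 302 and 264 CPM, with both LI libraries above both SI libraries, and in mesothelial cells 245, 174, 228 and 215.5 CPM. Its neuronal levels were 200, 135, 78.4 and 106 CPM, with both LI libraries above both SI libraries.

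The comparisons below used UMI sums per library and edgeR's quasi-likelihood test with TMM scaling and Benjamini-Hochberg adjustment over all genes tested, and a member was called at an adjusted p under 0.05. Differences are log2 values with their standard errors (SE). The groups are clusters of the same cells, built from genes other than the members. Cell cycle scores from a published list that holds many of the members were regressed out before clustering, so that the borders of the groups were drawn after that step. The study regressed out cell cycle effects too, but by another scoring.

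Mesothelial cells held fewer mitosis transcripts than other mesenchyme. All 40 members were lower, with a median log2 difference of -0.72, and 37 were called, where 18% of the 12616 genes tested were called lower. The 37 comprised all 8 of CDK1 and its regulators, all 5 APC/C and checkpoint members, all 5 kinase and passenger complex members, 5 of 6 kinetochore, 9 of 9 spindle and 2 of 4 cytokinesis members, and *Top2a*, *Smc4* and *Mki67*. In each of the 4 libraries 38 members were lower in mesothelial cells, against 30% of all genes tested. *Cenpa*, the histone H3 variant of the centromere, was measured at 106, 128, 137 and 128 CPM in mesothelial cells and at 180, 211, 290 and 255 CPM in other mesenchyme, without overlap, and fell by 0.89 (SE 0.0921, edgeR adjusted p = 9.09e-05). *Psrc1*, a spindle protein, fell by 1.17 (SE 0.122, edgeR adjusted p = 9.73e-05), from 31.2 to 41.9 CPM in other mesenchyme to 11.9 to 19.3 CPM. Next by adjusted p came *Cdc20* (-0.85), *Ube2c*, the ubiquitin-conjugating enzyme of the APC/C (-0.90), *Cdca8* or borealin (-0.84), *Cenpf* (-0.53), *Plk1* (-0.91) and *Tpx2*, a spindle assembly factor (-0.73). The 3 members not called were *Anln* (-0.38), *Ndc80* (-0.35) and *Ect2* (-0.19), with edgeR adjusted p-values of 0.087, 0.10 and 0.452. In a fit without the library block 23 members were called.

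Neural progenitors held more mitosis transcripts than other mesenchyme. A total of 31 members were called higher and none lower, with a median log2 difference of 0.53, where 24.4% of the 12460 genes tested were called higher. All 5 mitotic kinase and passenger complex members rose, with *Aurka*, the spindle pole kinase, up by 0.77 (SE 0.0857, edgeR adjusted p = 0.000264) and *Plk1* by 0.81 (SE 0.0966, edgeR adjusted p = 0.000384). *Aurka* was measured at 78.2, 86.3, 116 and 101 CPM in neural progenitors and at 54.4, 51.9, 78.8 and 56.8 CPM in other mesenchyme, higher in every library. Among CDK1 and its regulators 6 of 8 rose, led by *Ccnb1* (0.87), and *Cdc25c*, the phosphatase that activates CDK1, rose by 0.84 (SE 0.137, edgeR adjusted p = 0.00173). Of the spindle members 8 of 9 rose, among them *Hmmr* (0.61) and *Tpx2* (0.62), and *Cdca8* (0.81) and *Smc4*, a condensin subunit (0.51), completed the first 8 by adjusted p. Among the cytokinesis members 2 of 4 rose, and *Kif23*, the motor of the central spindle, gave -0.10 (adjusted p = 0.454) and was lower in all 4 libraries, as were 37% of all genes tested, while 27 members were higher in all 4 against 24.5%. *Psrc1* gave -0.32 (adjusted p = 0.119), *Top2a* 0.24 (0.0777) and *Mki67* 0.25 (0.0978), none of them called. With library totals in place of TMM the median of all genes moved from -0.01 to -0.12 and 25 members were called, all higher, and without the library block 21 were. With clusters formed without regression of cell cycle scores, 16 members were called higher and 2 lower.

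Neurons held far fewer mitosis transcripts than neural progenitors. All 40 members were called lower, with a median log2 difference of -1.99 and a range from -2.84 for *Psrc1* to -1.46 for *Ube2c*, where 30.2% of the 9539 genes tested were called lower. In each of the 4 libraries 39 members were lower, against 26.2% of all genes tested. *Top2a* fell by 2.15 (SE 0.0934, edgeR adjusted p = 1.16e-09), from 480 to 534 CPM to 112 to 139 CPM, without overlap in any library. *Cenpe*, a kinetochore motor, fell from 192, 239, 214 and 236 CPM to 67.4, 54.7, 49.0 and 49.9 CPM, by 2.20 (SE 0.108, edgeR adjusted p = 3.62e-09). The others with the smallest adjusted p were *Cenpa* (-1.89), *Cks2* (-1.96), *Cdc20* (-2.20), *Tpx2* (-2.14), *Plk1* (-2.36) and *Cdk1* (-2.24). The role medians ranged from -1.83 for the spindle to -2.22 for the mitotic kinases and passenger complex. The neuron sums held few UMIs of some members, 1 to 7 per library for *Psrc1* and 0 to 6 for *Cdkn3*, so those differences rest on little. With library totals in place of TMM the higher share of all called genes moved from 49.3% to 59.5%, and all 40 members were still called lower.

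Few members differed between SMC and other mesenchyme. The median log2 difference was 0.03 and 3 members were called, all higher in SMC, where 6.58% of the 13175 genes tested were called higher. *Nusap1*, which bundles spindle microtubules, was measured at 143, 119, 125 and 105 CPM in SMC and at 100.2, 78.4, 105 and 80.9 CPM in other mesenchyme, and rose by 0.47 (SE 0.0642, edgeR adjusted p = 0.00372). *Anln*, the actin-binding anillin of the cleavage furrow, rose by 0.46 (SE 0.0863, edgeR adjusted p = 0.0123), with 34.1, 47.6, 61.9 and 70.8 CPM in SMC. *Ckap2*, a spindle microtubule protein, rose by 0.34 (SE 0.0837, edgeR adjusted p = 0.033). These 3 and no other member were higher in SMC in all 4 libraries, against 14% of all genes tested. The next members by adjusted p were *Cdk1* (-0.16), *Ckap2l* (0.13), *Psrc1* (0.13), *Ndc80* (-0.12) and *Cdca8* (0.11), with edgeR adjusted p-values from 0.337 to 0.505. This comparison depended on how the cells were grouped. With clusters formed without regression of cell cycle scores, all 40 members were called lower in SMC with a median of -3.62. With groups set by marker UMIs, which put 64.2% of the SMC cells in the same group, 24 members were called lower. Without the library block 0 members were called, and without LI replicate 2 only 1.

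**Figure D3:**
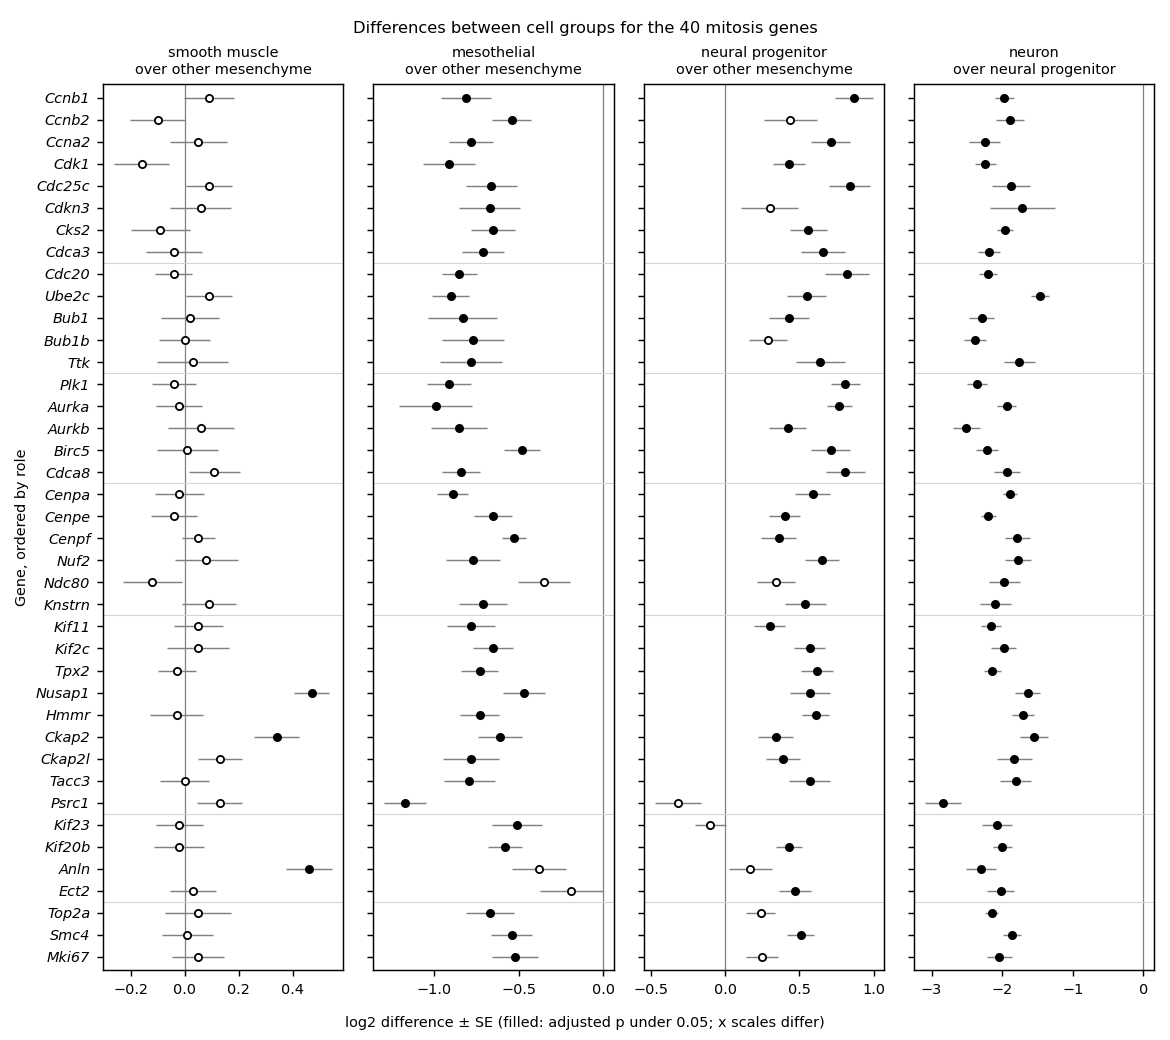
Log2 differences of the 40 members with their SE (edgeR, sums of 4 libraries, library as a block), 1 panel per comparison of groups, with filled points for members called at an adjusted p under 0.05. The x axes differ between panels, and the neuron panel holds all 40 members between -2.84 and -1.46.

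Between regions, the members tended to be higher in the SI in other mesenchyme, although few passed the test with 2 libraries a region. All 40 members had a positive log2 difference, from 0.08 for *Cdc25c* to 1.19 for *Cdk1* with a median of 0.47, and 1 was called, where 1.1% of the 13886 genes tested were called higher. The value of *Cdk1* depended on single LI libraries. It was 0.67 with LI replicate 1, its lowest library, left out and 1.95 with LI replicate 2 left out. *Cks2* was measured at 159 and 222 CPM in LI and at 369 and 298 CPM in SI, without overlap, and was higher in SI by 0.97 (SE 0.211, edgeR adjusted p = 0.0455). *Anln* was measured at 31.9 and 33.2 CPM in LI and 48.5 and 46.1 CPM in SI, a difference of 0.70 (SE 0.175, edgeR adjusted p = 0.0762). Both SI libraries exceeded both LI libraries for 24 of the 40 members, against 14.2% of all genes tested. At an unadjusted p under 0.05 there were 21 members, against 18% of all genes. After *Cks2* and *Anln* the smallest adjusted p-values belonged to *Cenpa* (0.64), *Aurkb* (0.93), *Ccna2*, cyclin A2 (0.68), *Ube2c* (0.69), *Cdk1* (1.19) and *Knstrn*, a kinetochore protein (0.66), at 0.104 to 0.133. Single libraries moved some of these values. *Aurkb* gave 0.58 with LI replicate 1 left out and 1.34 with LI replicate 2 left out. *Ccna2* and *Ube2c* gave 0.44 and 0.43 with SI replicate 1 left out, and 0.90 and 0.91 with SI replicate 2 left out. The differences depend on the scaling. With library totals in place of TMM the median of all genes moved from 0.01 to -0.15, the higher share of all called genes from 30.1% to 17.4% and the median of the members to 0.32, *Cdc25c* and *Cenpf* turned negative, and 0 members were called. Single libraries changed the count too, to 9 with LI replicate 1 left out, 6 with LI replicate 2 left out and 3 with SI replicate 2 left out, and DESeq2 called 7. With SI replicate 1 left out *Cks2* was no longer called (0.77, edgeR adjusted p = 0.149) and *Cdk1* was the single call. The sign of the members depended on single libraries too, since 38 were positive with SI replicate 1 left out and 36 with LI replicate 2 left out, where *Cdc25c* gave -0.27. With clusters formed without regression of cell cycle scores *Cks2* gave 0.90 (edgeR adjusted p = 0.0718) and *Anln* was the single call.

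The cells called other mesenchyme were not uniform in this respect. In the largest cluster, 45.6% and 33.2% of LI cells and 53.9% and 39.5% of SI cells held at least 5 members. The cluster led by *Bmp3* and *Col14a1* gave 50.8% and 41.8% in LI and 71.0% and 54.1% in SI, above the largest cluster in every library. In the cluster led by *Anxa2*, *Tac2* and *Wnt4* the regions overlapped, with 39.9% and 25.3% in LI and 41.5% and 31.1% in SI, and with summed member levels of 4765 and 3991 CPM in LI and 4755 and 4049 CPM in SI. A cluster led by *Pitx1* held 412 and 404 cells of the LI libraries and 14 and 50 of the SI libraries. It gave 5.97% and 28.0% in LI and 25.0% and 58.3% in SI, from 285, 343, 12 and 48 cells of sufficient depth. The cluster led by *Foxd1* gave 8.51% and 2.08% in LI against 60.0% and 35.1% in SI, from 94, 144, 20 and 74 cells of sufficient depth. These 2 smaller clusters held mostly LI cells, and their summed member levels there were 950 and 1061 CPM (*Pitx1*) and 1116 and 439.7 CPM (*Foxd1*). In the *Pitx1* cluster the LI shares thus differed far more than the LI levels. Without the *Pitx1* cluster the median of the members between regions was 0.37 in place of 0.47 and 0 were called, and the same count was found in the largest cluster alone.

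In the remaining groups no member was called between regions by edgeR, where 1.34% of all genes tested were called in SMC, 1.11% in mesothelial cells, 0.335% in neural progenitors and 0.555% in neurons. The median log2 difference was 0.03 in SMC (22 members positive, or 11 and a median of -0.11 with library totals), -0.09 in mesothelial cells (19 of 40 positive), 0.13 in neural progenitors (36 of 40 positive) and -0.27 in neurons, where 37 members passed the filter on low counts and 27 of them were negative. At an unadjusted p under 0.05 there were 1, 0, 0 and 4 members, against 12.3%, 10.9%, 7.58% and 6.95% of all genes, and DESeq2 called 1, 0, 0 and 0. In SMC the smallest adjusted p-value was that of *Anln*, higher in SI by 0.84 (SE 0.209, edgeR adjusted p = 0.138), for which both SI libraries lay above both LI libraries. *Cenpe*, *Cenpf*, *Kif11* and *Kif20b* lay below in both SI libraries of SMC, as did 35.2% of all genes tested, and both lay above for 12.3%. In neural progenitors both SI libraries exceeded both LI libraries for 12 members, against 21.2% of all genes tested, and in neurons both lay below for 12 of 37, against 17.4%. In neurons *Cenpf* gave -0.82 (SE 0.25, edgeR adjusted p = 0.265) and *Cdca8* -1.06 (SE 0.357, edgeR adjusted p = 0.37). Leaving out LI replicate 2 gave 2 calls in SMC, 2 in mesothelial cells, 6 in neural progenitors and 3 in neurons. The interval of a difference of about 2 SE on either side was wide, so equal levels in both regions were not shown for any group.

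**Figure D4:**
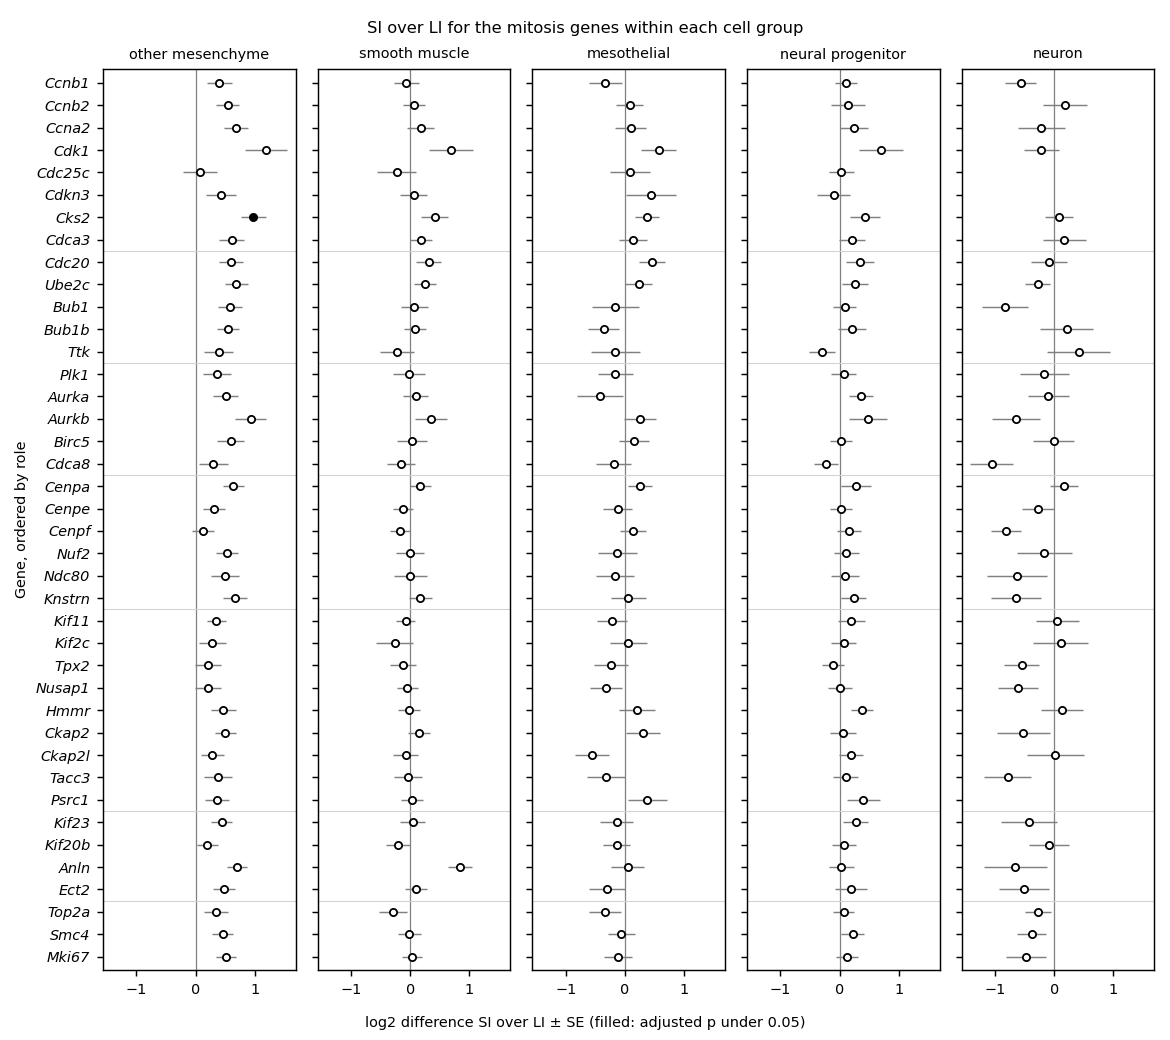
Log2 differences of the members between SI and LI with their SE, 1 panel per group of cells (edgeR, 2 SI and 2 LI libraries). All 40 points lie above 0 in other mesenchyme with a median of 0.47, 22 are positive in SMC, 19 in mesothelial cells and 36 in neural progenitors, and 27 of 37 are negative in neurons.

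Whether the SI over LI difference itself differed between groups was tested as an interaction. Relative to other mesenchyme, the difference was smaller in SMC for 24 members, with a median of -0.45, where 1.39% of the 13767 genes tested were called lower. *Top2a* led with -0.63 (SE 0.0762, edgeR adjusted p = 0.00355), its SI over LI difference being 0.34 in other mesenchyme and -0.29 in SMC. It was followed by *Birc5* or survivin (-0.57), *Cks2* (-0.56), *Ube2c* (-0.43), *Ccnb1* (-0.46), *Cenpa* (-0.46), *Mki67* (-0.48) and *Cdca8* (-0.47). The members called comprised 5 of 8 of CDK1 and its regulators, 4 of 5 APC/C and checkpoint members, 5 of 6 kinetochore members and all 3 of chromosome structure and *Mki67*, but 0 of 4 cytokinesis members. *Anln* was the only member with a positive value, 0.14 (adjusted p = 0.745). This test too moved with the grouping: 0 members were called with clusters formed without regression (median 0.43) or with groups from marker UMIs (0.13), and 3 without the *Pitx1* cluster or with no doublets removed, and DESeq2 called 13. Leaving out LI replicate 1 or LI replicate 2 left 0 calls.

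In mesothelial cells the SI over LI difference was smaller than in other mesenchyme for 18 members, with a median of -0.56, where 3.6% of the 13374 genes tested were called lower. *Top2a* again led with -0.68 (SE 0.127, edgeR adjusted p = 0.000671), followed by *Cks2* (-0.64), the checkpoint kinase *Bub1b* (-0.94), *Ccnb1* (-0.74), *Cdk1* (-0.70), *Mki67* (-0.63), *Ckap2l* (-0.85) and *Smc4* (-0.55). *Cenpf* gave 0.02, *Cdc25c* -0.03, *Psrc1* -0.02 and *Cdkn3* -0.01, none called. Both interactions share the other mesenchyme sums and are not independent of each other. With library totals 8 members were called, 4 had a positive value in place of 1, and the higher share of all called genes moved from 36.2% to 56.9%. Without the *Pitx1* cluster 9 were called, 7 with SI replicate 1 left out, and none with LI replicate 1 or SI replicate 2 left out. With LI replicate 1 left out *Top2a* gave -0.41 and *Mki67* -0.33. DESeq2 called 1 member, and 0 were called with groups from marker UMIs (median -0.45).

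Within single cells the members occurred together. Over the 11737 other mesenchyme cells of at least 3000 UMIs, all 780 pairs of members had a positive correlation of thinned UMIs, from 0.0441 to 0.657 with a median of 0.25. *Ube2c* with *Cenpf* gave the largest value, followed by *Ccnb1* with *Ube2c* (0.577) and *Cenpe* with *Cenpf* (0.565). *Ube2c* and *Cenpf* also correlated best with the sum of the other members (0.763 and 0.754), and *Cdkn3* least (0.21). These are descriptions over cells that share libraries, and the part of detection in these values was not tested.

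Outside the cell cycle lists, 10511 genes were searched for those whose UMIs followed the summed members in the same cells. *Arl6ip1*, a protein of the endoplasmic reticulum, gave 0.697, and *H2afx*, a histone H2A variant, gave 0.644. The tubulins *Tuba1b*, *Tubb5* and *Tuba1c* gave 0.527, 0.506 and 0.429, and the histone variant *H2afz* gave 0.473. *Nucks1* gave 0.428, *Dlgap5*, a spindle protein, 0.404, and *Dbf4*, the activator of the replication kinase CDC7, 0.399. *Arl6ip1* gave 0.67 to 0.717 in the 4 libraries taken singly.

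The members also fell into an order when set against DNA replication. Among other mesenchyme cells with at least 5 other members, each member's UMIs in cells above the library median of replication gene UMIs were divided by those in cells at or below it. The ratio was 1.20 for *Top2a* (1.03 and 1.18 in LI, 1.22 and 1.40 in SI), 1.16 for *Ndc80*, 1.04 for *Smc4* and 1.03 for *Aurkb*. These 4 were the only members with a mean ratio above 1. *Ndc80* and *Smc4* were above 1 in 3 libraries and *Aurkb* in 2. Their roles also held members with lower ratios, such as *Cdca8* (0.663) and *Birc5* (0.626) of the passenger complex and *Knstrn* (0.363) of the kinetochore. *Mki67* gave 0.905, *Cdk1* 0.861, *Ccna2* 0.696, *Cks2* 0.57, *Plk1* 0.49 and *Aurka* 0.458. *Ccnb1* gave 0.391, *Cenpf* 0.363, *Ube2c* 0.332 and *Ccnb2* 0.287. At the low end stood *Cenpa* with 0.241 (0.236 to 0.248 over the libraries), *Cdc20* with 0.189 (0.147 to 0.235) and the phosphatase *Cdkn3* with 0.182 (0.143 to 0.23). The 3 lowest members stayed below 0.25 in every library, and *Top2a* stayed above 1 in every library. Cyclin A2 thus stood nearer to replication than the cyclins B, and *Cdc20*, which activates the APC/C at anaphase, stood farthest with *Cenpa* and *Cdkn3*.

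**Figure D5:**
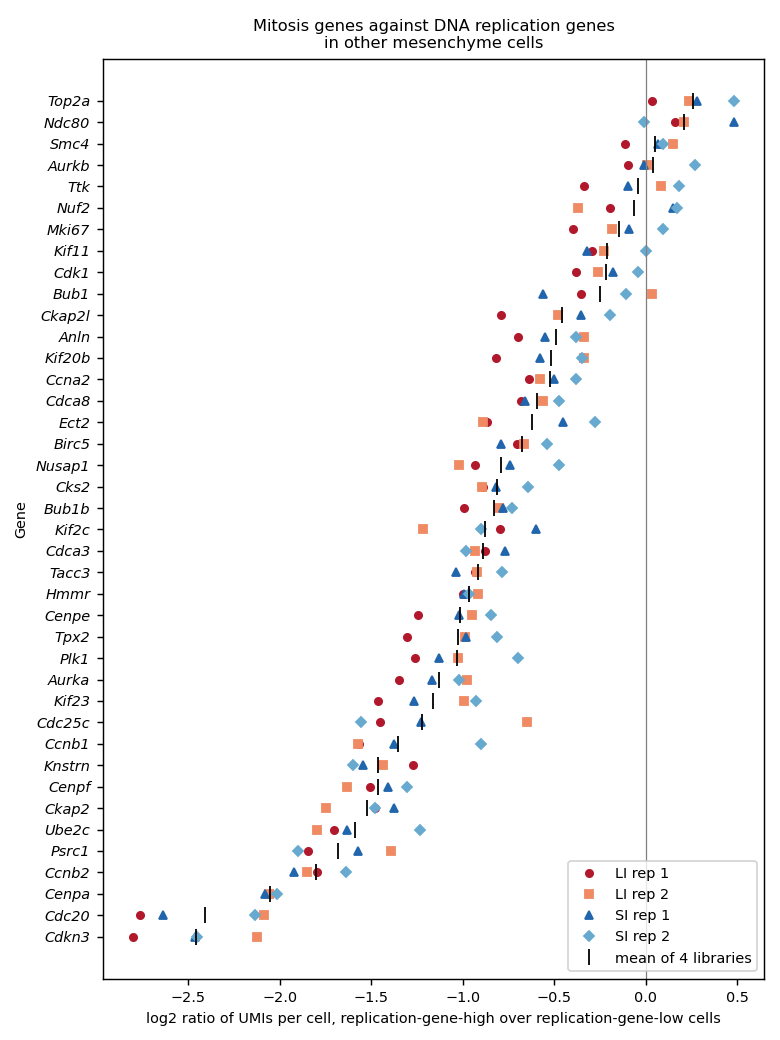
Log2 ratio of each member's UMIs per cell in other mesenchyme cells above the median of replication gene UMIs to those at or below it, among cells with at least 5 other members, with points for the 4 libraries and a bar for their mean on the log2 scale. The order runs from *Top2a*, at a ratio of 1.20, to *Cdkn3*, at 0.182.

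Other genes of the cell cycle were counted from 3 further lists, of 98 other mitosis genes, 56 DNA replication genes and 20 regulators of G1 and inhibitors. In mesothelial cells against other mesenchyme, 68 of 98 mitosis and 40 of 56 replication genes were called lower and none higher. Of all genes tested, 18% were called lower and 18.6% higher. The mitosis genes were led by *Fam64a* (-1.32), *Sapcd2* (-1.27) and *Ska3* (-1.23) and the replication genes by *Uhrf1* (-0.81), *Rfc3* (-0.66) and *Gins3* (-1.07). In neural progenitors 60 mitosis genes were called higher and 1 lower, with *Sapcd2*, *Tubb4b* and *Bub3* first (1.85, 0.96 and 0.68). Of the replication genes 35 were called higher and 2 lower, with *E2f1*, *Rrm1* and *Uhrf1* first (0.79, 0.81 and 1.04). Among all genes tested, 24.4% were called higher and 25.4% lower. In neurons against neural progenitors 83 of 96 mitosis and all 56 replication genes were called lower and 5 mitosis genes higher. The share of all genes tested was 30.2% lower and 29.4% higher. The mitosis genes were led by *Incenp* (-2.11), *Kif15* (-2.99) and *Spc24* (-2.57) and the replication genes by *Mcm5* (-2.63), *Hells* (-2.48) and *Dut* (-1.44). The replication genes thus went the way of the 40 members in these 3 comparisons.

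The G1 regulators did not move as a block. Between mesothelial cells and other mesenchyme 5 of 18 tested were called higher and 4 lower, against 18.6% and 18% of all genes tested. The inhibitor of cell growth *Gas1* was higher by 0.76, cyclin D2 (*Ccnd2*) lower by 0.90 and cyclin D3 (*Ccnd3*) higher by 0.56 on the log2 scale. In neural progenitors *Ccnd1*, cyclin D1, was measured at 1070, 1140, 812 and 748 CPM against 49.0, 51.2, 77.1 and 75.2 in other mesenchyme, a log2 difference of 4.02 (SE 0.279, edgeR adjusted p = 2.21e-05), and *Gas1* gave -2.38 and *Ccnd3* -1.43. In neurons the CDK inhibitor gene *Cdkn2d* was measured at 101, 123, 172 and 108 CPM against at most 48.5 in neural progenitors and rose by 1.65 (SE 0.112, edgeR adjusted p = 5.99e-08), while *Ccnd1* and *Ccnd2* gave -2.45 and -1.49. In SMC against other mesenchyme *Ccnd3* gave -0.30, *Btg2* -0.48 and *Ccnd2* 0.30 (8.62% of all genes were called lower), and *Mybl2* (0.36), *Cdt1* (0.21) and *Pold3* (0.19) were the called genes of the other lists.

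Between regions, the called genes of these lists were *Ccne1*, cyclin E1 (1.01), and *Ccnd1* (0.76) in other mesenchyme, *Ccnd1* (-1.37) in mesothelial cells, *Ccnd2* (-1.82) in neural progenitors, and *Ccnd1* (-1.66) and *Gas1* (1.82) in neurons. *Ccnd1* was thus higher in the SI of other mesenchyme, at 77.1 and 75.2 against 49.0 and 51.2 CPM, and lower in the SI of mesothelial cells, at 30.6 and 30.9 against 103 and 62.1 CPM. Its interaction was -2.13 (SE 0.21, edgeR adjusted p = 1.5e-08). In the same interaction 23 other mitosis genes (*Hmgb2*, *Smc2* and *Cdca5* first) and 27 replication genes (*Rrm2*, *Ccne1* and *Dut* first) were called lower, with *Btg2* (-0.69) and *Ccnd2* (-0.41) beside *Ccnd1* among the G1 genes. These counts stand against 3.6% of all genes called lower in that interaction. In the SMC interaction 28 mitosis and 9 replication genes were called lower, against 1.39% of all genes, with *Hmgb2* (-0.54), *Pbk* (-0.71), *Kif22* (-0.57), *Rrm2* (-0.50), *Tyms* (-0.44) and *Clspn* (-0.50) first, while *Gas1* (0.88) and *Btg1* (0.35) were called higher, as were 0.748% of all genes. The members lost their calls in both interactions with some single libraries left out, and the calls of these lists were not counted under those alternatives.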

How the data were processed

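Gene by cell UMI counts of 4 libraries were analysed. The authors deposited raw counts, aligned to mm10 with Cell Ranger 3.1.0 per the submitters' processing notes, which also name Seurat 3. Cells with at least 1000 genes and under 10% mitochondrial UMIs were kept, and the highest Scrublet scores were removed as doublets at 0.8% per 1000 cells, since its automatic threshold marked 15 cells. Of the cells removed, 58.8% to 77.3% by library held at least 5 members, against 34.5% to 52.6% of those kept. Cells were clustered in Seurat 5.3.0 (30 components, Louvain resolution 0.3) after regression of cell cycle scores, and 1780 of 2000 variable genes were left once the 40 members, the other cell cycle lists and histone genes had been taken out. Members of the other lists under older symbols (*Casc5*, *Fam64a*, *Sgol1*, *Sgol2a*) were not taken out. Clusters were named from markers. Levels in CPM are a gene's UMIs scaled to the UMI total of its group and library, with no TMM factor. Sums of at least 20 cells were tested with edgeR 4.0.16 (TMM, low-count filter, quasi-likelihood test, Benjamini-Hochberg over all genes tested), between regions without a block and between groups with library as a block. DESeq2 1.42.0, other scalings, filters, groupings and each library left out were alternatives. The scripts were tested on simulated data. Shares used cells thinned to 3000 UMIs, with 95% Wilson intervals for counting error only. All 40 members could be named, per-library values being given for 8 members in every group and, in each comparison, for some of the 8 with the smallest adjusted p. From each other list the 3 called genes with the smallest adjusted p were named, and outside the lists the 10 genes that correlated best with the summed members, of which 1 is not reported here. The members and lists were chosen with earlier results of these data known.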

Additional observations from a re-analysis of the deposited data

Results flagged for a closer look

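The SI over LI difference of the members was not the same in all groups by an interaction test (edgeR, adjusted over all genes tested). Against other mesenchyme it differed in SMC for 24 members, and the 8 with the smallest adjusted p were *Top2a* (-0.63), *Birc5* (-0.57), *Cks2* (-0.56), *Ube2c* (-0.43), *Ccnb1* (-0.46), *Cenpa* (-0.46), *Mki67* (-0.48) and *Cdca8* (-0.47), each a log2 difference of differences. Against other mesenchyme it differed in mesothelial cells for 18 members, led by *Top2a* (-0.68), *Cks2* (-0.64), *Bub1b* (-0.94), *Ccnb1* (-0.74), *Cdk1* (-0.70), *Mki67* (-0.63), *Ckap2l* (-0.85) and *Smc4* (-0.55). Both counts fell to 0 when single libraries were left out. The SMC median turned positive under other groupings, at 0.43 without regression of cell cycle scores and 0.13 with marker UMIs and 0 called in both. The mesothelial count was 1 by DESeq2 and 0 with marker UMIs, and both tests use the same other mesenchyme sums.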

How the results depend on the processing

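With 2 libraries a region, counts of called members between regions were unstable, and a left-out library leaves a lone sample that is assumed to vary like the others. In other mesenchyme (1 called) the count was 0 with library totals, with no doublets removed, with groups from marker UMIs, without the *Pitx1* cluster or in the largest cluster alone, 7 by DESeq2, 11 with no filter and 1 to 9 with a library left out, *Cks2* not being among the calls without SI replicate 1 or without regression. In SMC (0) it was 1 by DESeq2, 2 with no filter and 0 to 2 with a library left out, in mesothelial cells 0 to 2, in neural progenitors 0 to 6, and in neurons 0 to 3 and 1 with no filter. SMC against other mesenchyme (3 higher) turned to 40 lower without regression of cell cycle scores and 24 lower with marker UMIs, with *Nusap1* at -4.77 and -0.02, *Anln* at -2.21 and *Ckap2* at -1.38, and gave 1 to 3 with a library left out. Mesothelial cells gave 30 to 38, neural progenitors 21 to 29 (18 without regression) and neurons 40 with each library left out, while thinned cells gave 35 called of 35 that passed the filter. The SMC interaction (24) gave 13 by DESeq2, 15 with thinned cells, 3 with no doublets removed or without the *Pitx1* cluster, 0 without regression or with marker UMIs, and 0 to 32 with a library left out. Under those groupings *Top2a* gave 0.44 and 0.08, *Birc5* 0.22 and 0.04, *Ube2c* 0.16 and 0.30, *Ccnb1* 0.59 and 0.27, *Cenpa* 0.26 and 0.08, *Mki67* 0.28 and 0.06, *Cdca8* 0.43 and 0.27, and *Cks2* 0.03 without regression. The mesothelial interaction (18) gave 1 by DESeq2, 8 with library totals, 9 without the *Pitx1* cluster, 0 with marker UMIs and 0 to 24 with a library left out. At 10 members the share was 31.6% in other mesenchyme, 33.5% in SMC and 49.3% in neural progenitors, which gave 87.1% at 3 members and 65.0% at 2000 UMIs. SMC gave 4.92% without regression and 32.2% with marker UMIs. Summed levels moved to 3936 CPM (other mesenchyme) and 3955 CPM (SMC) in thinned cells, to 5645 and 516 CPM without regression, and to 3732 CPM in SMC with marker UMIs. The causes were not tested. Of the values for single named genes, 492 kept their direction and call, 82 lost the call and 19 reversed.

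The labels do not say that replicate numbers pair the libraries. Deviations of same-numbered libraries correlated at 0.135 to 0.415 across genes. With the replicate block 14 members were called between regions in other mesenchyme, all higher, where 4.95% of all genes were called higher in that fit, 1 higher in SMC (4.63% of all genes) and 1 lower in neurons (0.453%). Between groups, leaving out the library block changed the counts to 0 in SMC, 23 in mesothelial cells and 21 in neural progenitors. Alternatives on the *Pitx1* cluster, the largest cluster and library totals were chosen after seeing the data.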
